A study of Mus musculus with 12 samples.

Results

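Gene expression in peritoneal cells of the genotype TCL1-192 was compared with that in wild type peritoneal cells on Illumina mouse bead arrays. Of the 12 arrays in the study, 6 belong to this comparison, chosen by their labels. The TCL1-192 side has 4 arrays, replicates 1 and 2 of PtC+ cells and replicates 1 and 2 of PtC- cells. The wild type side has 2 arrays, 1 of PtC+ and 1 of PtC- cells. PtC is phosphatidylcholine, a membrane lipid and self antigen, and PtC+ cells are those that bind it. Every group is on a C3H/C57BL/6 mixed background, and the labels enter all samples, wild type included, as chronic lymphocytic leukaemia (CLL). The other 6 arrays, 4 of TCL1-192 spleen and 2 of young TCL1 peritoneum, are used only for levels set side by side. Age other than the word young, the number of animals behind each array, the sorting gates, and the promoter that drives TCL1 are not stated in the labels. It is also not stated whether TCL1-192 names 1 leukaemia, a line passed between mice or several mice, so replicates may be technical and p-values then measure only the spread between these arrays.

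TCL1 is an oncogene that binds the kinase AKT, and mice that express it in B cells develop a leukaemia like human CLL. The leukaemia grows out of B-1 cells, a self-renewing B cell population of the peritoneal cavity whose receptors often recognise self antigens such as PtC. A signal through the B cell receptor runs through the kinases LYN, SYK and BTK to calcium, ERK and NF-kB, and is held back by inhibitory receptors that recruit phosphatases. Cells that enter division first express genes of DNA replication under E2F factors and then genes of mitosis under FOXM1, B-MYB and related complexes.

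The arrays differed in quality. The PtC- TCL1-192 array of replicate 2 had a raised background, with 10711 of 45281 probes detected and a median signal of 219.2. The other 5 arrays of the comparison detected 13825 to 15025 probes at median signals of 106.1 to 119.2. Log2 levels over all tested genes correlated at 0.938 to 0.983 among the TCL1-192 arrays, at 0.981 between the wild type arrays and at 0.866 to 0.918 between the genotypes. The number of arrays limits the precision, with a median standard error (SE) of 0.249 log2 units over genes. The total of calls and the counts of several lists are therefore also given without the array of raised background. Counts of lists without such a value can move too.

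The labelled cell type was checked against B cell markers. Cd79b, a signalling chain of the B cell receptor, had log2 levels of 14.68 and 14.74 on the wild type arrays and 14.33 to 14.53 on the TCL1-192 arrays. The kappa constant region Igk-C stood at the array ceiling of 15.47 on all 6 arrays. Both genotypes thus carried these transcripts, although a difference in Igk-C cannot show at the ceiling. The summed signal of 7 B cell symbols was 59295 to 77941 in TCL1-192 and 83074 to 86174 in wild type cells without overlap, and 1 of 6 tested markers, Ms4a1, was called lower. The probe for Pax5, the B lineage factor, was undetected on all 6 arrays. Mouse Tcl1 was undetected on all 6 arrays as well, at 4.65 to 4.76, and whether this probe can report the transgene is not given.

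Transcripts of some other cell types were present, and the summed signals of several types did not overlap between the groups. The summed background-corrected signal of 19 macrophage symbols was 20159 to 30705 on the TCL1-192 arrays and 29837 to 41366 on the wild type arrays, against 1904 to 2252 in TCL1-192 spleen. That of 8 mast cell and basophil symbols was 110 to 173 against 2003 to 3120, and Cpa3, Mcpt4, Mcpt6, Kit and Cma1 were undetected on every TCL1-192 array. That of 8 erythroid symbols was 19482 to 33229 against 134 to 262, nearly all of it haemoglobin, with the red cell gene Slc4a1 undetected throughout. The T cell sum was 982 to 1152 against 1327 to 1922 over 12 symbols, with Cd4, Cd8a and Cd28 undetected on all 6 arrays. The neutrophil sum was 121 to 128 against 125 to 128 over 9 symbols, 8 of which were undetected on all 6 arrays. The platelet sum was 199 to 377 against 818 to 1266 over 4 symbols, of which only Pf4 (array symbol Cxcl4) was detected in wild type cells. The NK cell sum was 213 to 232 against 267 to 306 over 7 symbols, 4 of which were undetected on all 6 arrays. The mesothelial and stromal sum was 1944 to 2852 against 906 to 1707, with 6 of 9 symbols undetected throughout. Its member Dcn was at least 5.23-fold higher in TCL1-192 cells. The dendritic cell sum was 756 to 1171 against 471 to 610, with 7 of 8 symbols undetected throughout. In RNA from many cells, fewer cells of a type and less RNA per cell cannot be told apart, and the part of these transcripts in the results below was not tested except where a value is given.

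**Figure D1:**
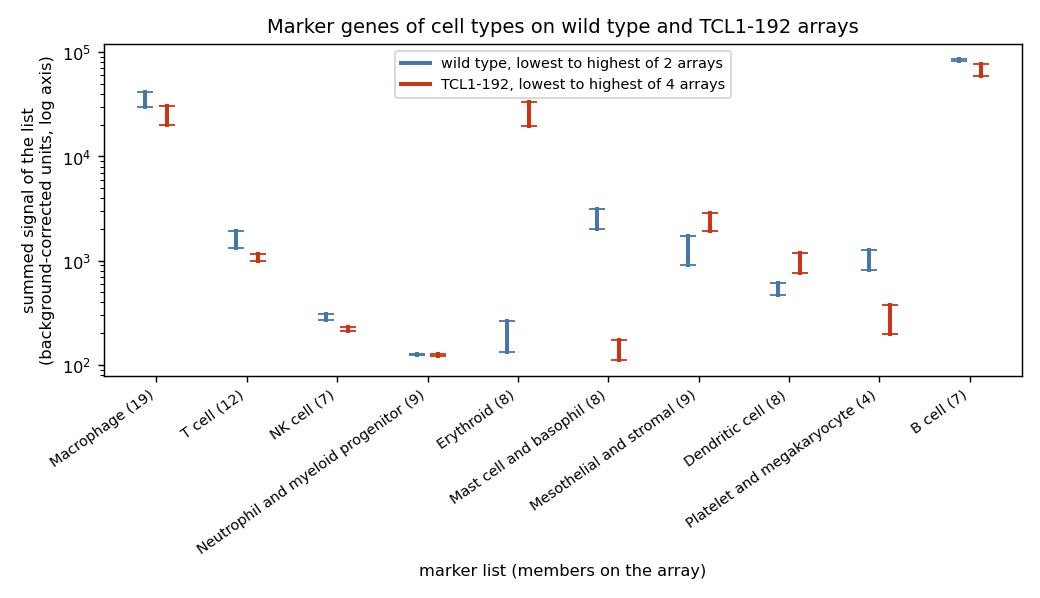
Summed background-corrected signal of marker lists (log axis, array units) for 10 cell types, with bars from the lowest to the highest array of each genotype and the number of symbols on the array in brackets. The erythroid bars lie apart with TCL1-192 higher (19482 to 33229 against 134 to 262), the mast cell bars lie apart with wild type higher, and the macrophage bars overlap.

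The genotypes also differed in genes that mark sex and strain. Xist, the RNA of the inactive X chromosome, was undetected on the wild type arrays (5.07 and 4.86) and at 8.07 to 8.59 on the TCL1-192 arrays. The Y-linked gene Eif2s3y was at 10.71 and 10.36 on the wild type arrays and undetected, at 4.70 to 4.73, on the TCL1-192 arrays. The Y-linked gene Ddx3y was lower too, at 10.92 and 10.69 in wild type cells, but it was detected on every TCL1-192 array at 6.25 to 7.40. Sex-linked expression thus differed with the genotype, and sex and genotype cannot be told apart here. Young TCL1 arrays lay near wild type in these genes, at 5.03 and 4.99 for Xist and at 10.27 and 11.19 for Eif2s3y. H2-Ea, an MHC class II chain that some inbred strains including C57BL/6 lack, was at 12.89 and 12.90 in wild type, at 8.20 to 10.63 in TCL1-192 peritoneum, at 5.28 to 6.17 in TCL1-192 spleen and at 4.72 and 4.80 in young TCL1 cells. The strain make-up of each mouse within the mixed background is not given, and its part in the results was not tested.

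The comparison of the genotypes, with PtC class as a term, called 2218 of 11744 genes at a limma adjusted p under 0.05, which is 18.9% of the genes tested. Of these, 972 genes (8.28%) were higher in TCL1-192 cells and 1246 (10.6%) were lower. A change of 2-fold or more was reached by 690 of the higher and 1021 of the lower genes, and 4-fold or more by 209 and 306. The median difference over all genes was 0.03 log2 units, and 4174 genes had an unadjusted p under 0.05. Every TCL1-192 array lay above both wild type arrays for 2459 genes (20.9%) and below both for 2881 genes (24.5%). With median centring in place of quantile normalization, 2191 genes were called, but 402 (18.3%) rather than 43.8% of them were higher, because the median of all genes then lay at -0.28. The excess of falls was not kept under every filter. With detection required on 4 of 6 arrays 1006 genes were higher and 861 lower, and with undetected values raised to the detection limit 1218 were higher and 1222 lower. Leaving out a single array left 372 calls without the wild type PtC+ array, 420 without the wild type PtC- array, 675 without TCL1-192 PtC+ replicate 1 and 820 without PtC+ replicate 2. In these fits a lone wild type array was assumed to vary like the others. Called genes kept their direction in all 6 such fits, and 282 (129 higher, 153 lower) were called in every one of them. Without the TCL1-192 array of raised background there were 3028 calls, 2205 of them among the 2218.

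**Figure D2:**
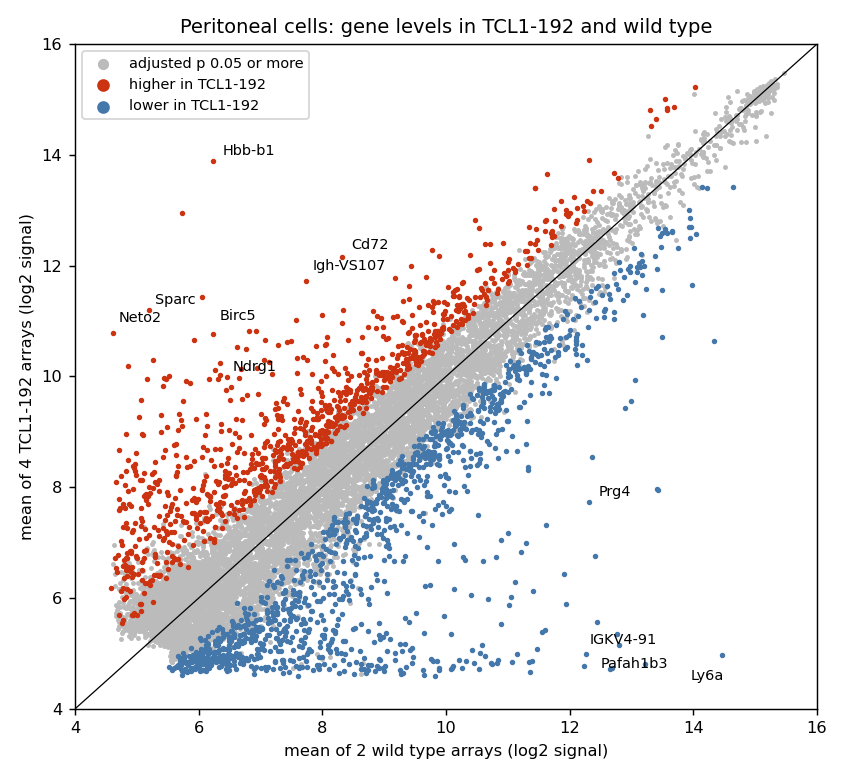
Mean log2 signal of each of 11744 genes on the 4 TCL1-192 arrays (vertical axis) against the mean on the 2 wild type arrays (horizontal axis), with genes past a limma adjusted p of 0.05 in colour and the line of equal levels drawn. Falls reach further than rises: Ly6a drops from near the top of the range to the detection limit, while Neto2 and Sparc climb from that limit.

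The largest rises, haemoglobin aside, were in genes of varied roles. Neto2, an auxiliary subunit of glutamate receptors known from neurons, was undetected in wild type cells (4.66 and 4.56). It was at 10.63 and 10.59 on the TCL1-192 PtC+ arrays and at 10.87 and 11.06 on the PtC- arrays, at least 39.6-fold higher (limma adjusted p = 0.00022). The groups did not overlap, and the young TCL1 arrays were already at 9.85 and 9.13. Sparc, a secreted matrix protein, rose 64.1-fold from 4.75 and 5.65 to 11.01 to 11.29, with young TCL1 cells between them at 8.24 and 6.45. Etv5, a transcription factor of the ETS family, rose 33.1-fold to 9.64 to 10.95 from 4.94 and 5.57, and in young TCL1 cells it was at 5.14 and 4.89. A second array symbol of Etv5, 8430401F14Rik, differed by 1.79 ± 0.52 and did not pass. Vpreb3, which is expressed with the pre-B cell receptor, rose 26.5-fold from 5.33 and 6.53 to 10.03 to 11.09. Cpm, a membrane carboxypeptidase, was at least 17-fold higher, and Sostdc1, a secreted antagonist of BMP and WNT signals, rose 22.5-fold. Hspb1, a small heat shock protein, rose 22.4-fold and Phkb, a subunit of phosphorylase kinase, 16-fold. Avil, an actin-binding protein, was at least 11.2-fold higher and Serpinb6b, a protease inhibitor, at least 13.9-fold. Apart from the second Etv5 symbol these were called in each of the 6 fits with an array left out. Other kept probes gave smaller rises, down to 3.41 for Neto2, 2.41 for Sparc, 2.03 for Cpm and 0.94 for Phkb on the log2 scale. Of 69 named genes with several kept probes, 22 had probes over 1.5 log2 units apart and 2 had probes of both signs.

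The largest falls are given with the young TCL1 levels beside them, which lay near either genotype. Ly6a, which encodes the surface protein Sca-1 and whose level varies between inbred strains, was at 14.45 and 14.47 in wild type cells. On the TCL1-192 arrays it was undetected at 4.74 to 5.24, at least 397.5-fold lower (limma adjusted p = 0.00011), and young TCL1 cells were at 5.26 and 5.36. The young TCL1 arrays thus lay with the TCL1-192 arrays for Ly6a. For a second set they lay with wild type, as they also did for Xist and Eif2s3y. Pafah1b3, which encodes a catalytic chain of an enzyme that degrades platelet-activating factor, was at 13 and 12.59 in wild type, 13.19 and 13.11 in young TCL1 and 4.79 to 5.28 in TCL1-192 cells. Serpina3g, a protease inhibitor, was at 12.31 and 12.23 in wild type, 11.97 and 11.37 in young TCL1 and 4.84 to 5.12 in TCL1-192 cells. The same order of levels held for Tes, a focal adhesion protein (at least 26.5-fold lower in TCL1-192 than in wild type cells), Emb, a cell adhesion protein (at least 22.7-fold) and Pglyrp1, which binds bacterial peptidoglycan (at least 24.1-fold). Kept probes of Tes ranged from -5.63 to -1.54 log2 units. Slpi, a secreted inhibitor of proteases, fell 43.9-fold from 12.96 and 13.87 to 7.19 and 8.30 in PtC+ and 7.41 and 8.93 in PtC- cells, and was at 5.98 and 4.96 in young TCL1 cells. Cma2, a chymase of mast cells, was at least 19.6-fold lower, beside the mast cell sums given above.

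The 4 lists of DNA replication and mitosis had the highest medians and shares of calls among the 30 pathway lists. Genes rose at each step from the licensing of replication origins to cytokinesis, and no tested member of these lists fell. Of 21 tested members of replication licensing and initiation 16 rose, with a median difference of 1.36, against 8.28% of all genes higher and a median of 0.03. Without the array of raised background 18 rose. Mcm10, which activates the replicative helicase, was at 5.75 and 5.24 in wild type cells. It rose 12.1-fold to 9.34 and 9.16 in PtC+ and 8.80 and 9.06 in PtC- TCL1-192 cells, with 1.22 log2 units on its other probe. Of the GINS subunits of that helicase Gins2 rose 6.6-fold, Gins1 5.76-fold and Gins4 2.02-fold, and Gins3 (0.10) did not pass. In its MCM core Mcm7 rose by 2.27 ± 0.28 log2 units (SE, limma adjusted p = 0.0061), Mcm5 by 2.13 ± 0.17 and Mcm2 by 1.30 ± 0.19, and Cdc6, which loads it, by 2.13 ± 0.21. Cdt1, its other loader, differed by -0.21 and did not pass. With median centring 9 members were called, and 4 and 5 without the wild type PtC+ or PtC- array.

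DNA synthesis and nucleotide supply genes behaved alike, 16 of 22 tested members rising with a median of 1.35. Rrm2, the regulated subunit of ribonucleotide reductase, was undetected in wild type cells (5.19 and 4.99). It reached 9.37 and 9.33 in PtC+ and 8.51 and 8.57 in PtC- TCL1-192 cells, at least 11.1-fold higher (limma adjusted p = 0.00047). The thymidine kinase gene Tk1 rose 6.87-fold, thymidylate synthase (Tyms) 5.27-fold, the ligase of lagging strand fragments Lig1 4.69-fold and the second reductase subunit Rrm1 3.48-fold. Second probes ranged down to 0.80 for Tk1 and 0.27 for Lig1 on the log2 scale. Pcna, the sliding clamp, rose by 1.58 ± 0.36 log2 units. The PtC+ levels of Rrm2, Tk1 and Tyms were above the PtC- levels within TCL1-192 cells, but their effect did not differ between PtC classes by test (adjusted p of 0.88, 0.87 and 0.87). With median centring 9 members were called, and 3 and 6 without the wild type PtC+ or PtC- array.

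Replication-dependent histones, whose mRNAs are made in S phase, rose in 32 of 48 tested members, with 0 falling and a median of 1.11. Hist1h2ag (now H2ac11) was at 8.23 and 8.41 in wild type cells and at 10.93 to 10.99 on the TCL1-192 arrays, a 6.24-fold rise (limma adjusted p = 0.00072). Hist2h2ab (H2ac21) rose 6.27-fold, Hist1h2an (H2ac22) 4.08-fold and Hist1h4i (H4c9) 3.98-fold. Probes for near-identical histone genes can report one another, so members are not separate observations. The count was 13 with median centring, and 4 and 6 without the wild type PtC+ or PtC- array. It was 36 without the TCL1-192 array of raised background.

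Mitosis genes rose most. Among mitotic kinases, cyclins and anaphase regulators 17 of 22 tested members rose with a median of 2.57. Among spindle, kinetochore, condensin and cytokinesis genes 24 of 29 rose with a median of 2.38. Without the array of raised background 21 and 27 rose in these lists. Birc5 (survivin), which positions Aurora B on chromosomes, was at 6.40 and 6.07 in wild type cells. In TCL1-192 cells it was at 11.01 and 11.22 (PtC+) and 10.24 and 10.62 (PtC-), a 23.2-fold rise (limma adjusted p = 0.00039). All TCL1-192 arrays were far above wild type, and the young TCL1 arrays were apart from each other, at 8.87 for PtC+ and 5.98 for PtC-. The same split of the young arrays was seen in Pbk, a mitotic kinase (8.08 and 5.22), Top2a, which untangles chromosomes (8.72 and 5.67), and Plk1 (8.28 and 5.83), each a level of 1 array per class and without a test. Cdk1, on the array as Cdc2a, drives entry into mitosis with cyclin B. It was undetected in wild type cells (5.17 and 5.0) and at 9.35 and 9.61 in PtC+ and 8.19 and 8.68 in PtC- TCL1-192 cells, at least 11.1-fold higher. Its partner Ccnb1 rose 14.1-fold, and Cdc20, which triggers their destruction, 9.99-fold. The kinases Plk1 and Aurkb rose by 3.29 ± 0.23 and 2.62 ± 0.22 log2 units, and Mki67, the proliferation marker Ki-67, by 2.63 ± 0.22. On the spindle, Nusap1 rose 15-fold, the kinesin Kif22 14.5-fold and the cytokinesis factor Prc1 12-fold. Spag5 and the motor Kif11 were at least 9.14-fold and 7.52-fold higher. Second kept probes gave 0.83 for Nusap1 and 0.43 for Spag5, against 3.90 and 3.96 on those used. Of the spindle list's 24 rises 11 were undetected in wild type cells, and of its 23 members detected on at least 4 arrays 21 rose. In these 2 lists 13 and 12 members were called in every fit with an array left out, and median centring left 17 and 23 calls. The transcription factors of this programme had smaller differences. Foxm1 rose by 1.04 ± 0.23, and Mybl2 (B-MYB) differed by 0.86 ± 0.45, which did not pass.

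**Figure D3:**
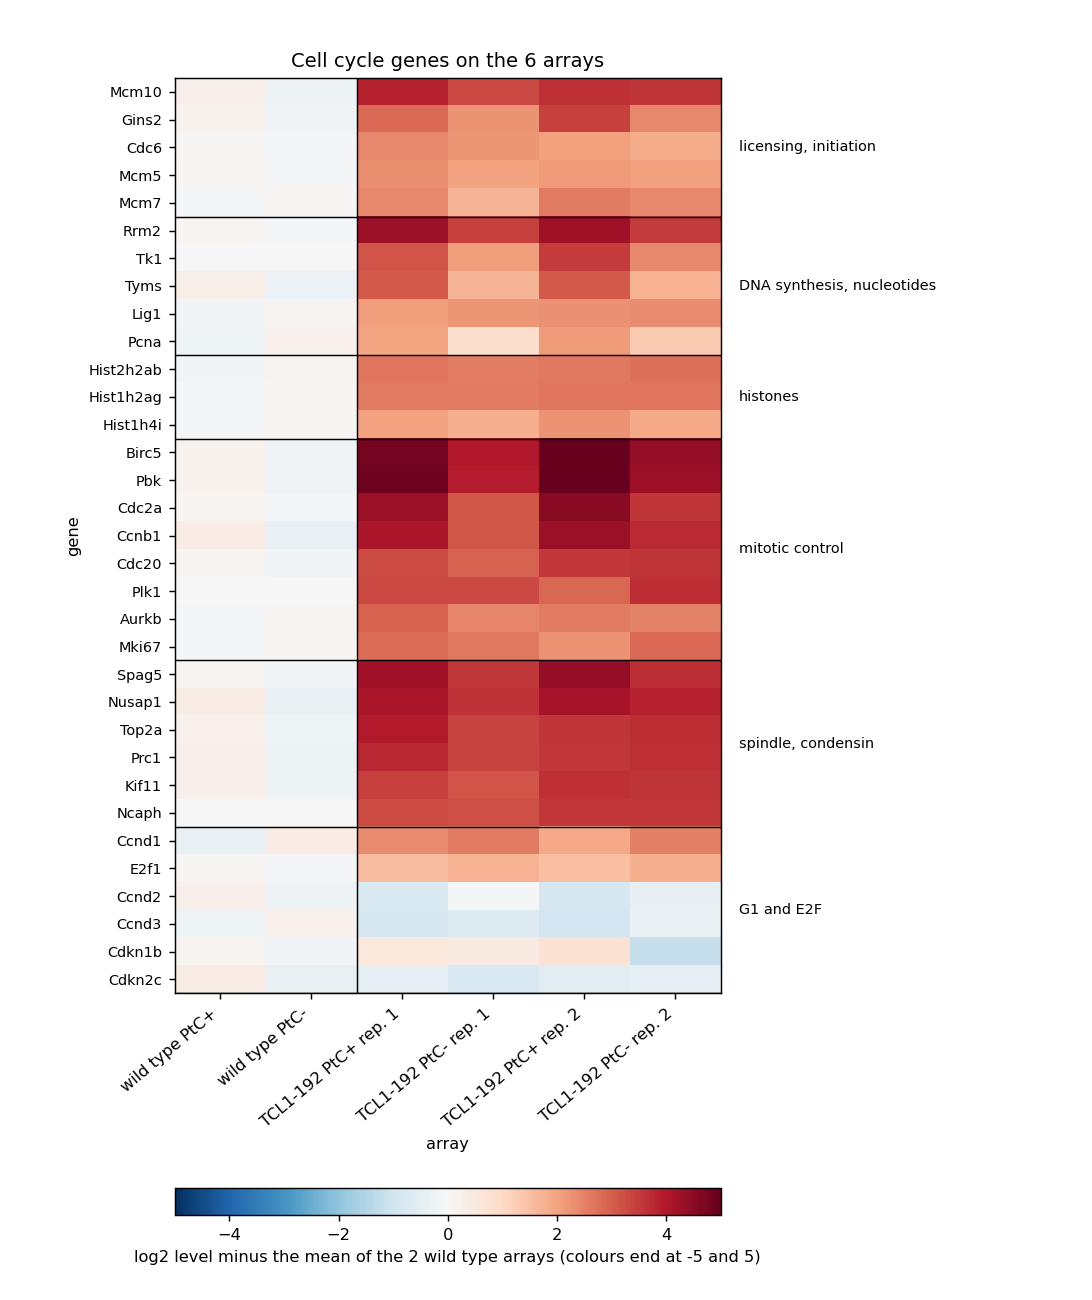
Level of 33 cell cycle genes on each of the 6 arrays, as the log2 level minus the mean of the 2 wild type arrays, in blocks by step of the cycle. The 4 TCL1-192 columns are red from Mcm10 down to Ncaph, deepest in the mitotic blocks, while in the block of G1 genes Ccnd1 and E2f1 are red and Ccnd2, Ccnd3 and Cdkn2c are pale or blue.

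Promoters of the mitosis genes are shown because these genes moved together and because 2 short elements are known from promoters of that phase. These are TTTGAA, the cell cycle genes homology region, and CCAAT, which binds NF-Y. Both were searched on both strands (TTCAAA and ATTGG on the other) in the 250 bases before each start in the RefSeq promoter table of GRCm38.p6, and the 2 motifs can share at most 1 base. The 4 genes printed were picked after their values were seen, as called members of the 2 mitosis lists with the largest rises among those with a single promoter holding both motifs. Each is given 5′ to 3′ on the gene's strand and ends at the base before the start, with motif matches in capitals.
Cdk1, chr10:69352913-69353162, minus strand: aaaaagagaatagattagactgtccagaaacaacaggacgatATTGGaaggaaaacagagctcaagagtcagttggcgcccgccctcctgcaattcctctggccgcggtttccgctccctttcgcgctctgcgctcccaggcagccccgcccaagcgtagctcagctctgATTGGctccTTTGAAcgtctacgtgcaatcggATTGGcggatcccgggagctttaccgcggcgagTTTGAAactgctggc
Kif22, chr7:127042421-127042670, minus strand: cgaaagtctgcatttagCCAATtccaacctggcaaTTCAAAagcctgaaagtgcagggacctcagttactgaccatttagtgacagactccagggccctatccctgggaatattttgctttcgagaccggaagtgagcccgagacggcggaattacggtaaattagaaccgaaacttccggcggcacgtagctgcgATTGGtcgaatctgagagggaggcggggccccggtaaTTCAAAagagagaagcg
Top2a, chr11:99024190-99024439, minus strand: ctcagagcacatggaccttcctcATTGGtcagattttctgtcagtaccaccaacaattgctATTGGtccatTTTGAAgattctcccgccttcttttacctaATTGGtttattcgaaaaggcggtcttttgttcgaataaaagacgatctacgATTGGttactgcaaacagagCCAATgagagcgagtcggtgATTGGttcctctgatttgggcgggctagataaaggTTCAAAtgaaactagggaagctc
Kif11, chr19:37376132-37376381, plus strand: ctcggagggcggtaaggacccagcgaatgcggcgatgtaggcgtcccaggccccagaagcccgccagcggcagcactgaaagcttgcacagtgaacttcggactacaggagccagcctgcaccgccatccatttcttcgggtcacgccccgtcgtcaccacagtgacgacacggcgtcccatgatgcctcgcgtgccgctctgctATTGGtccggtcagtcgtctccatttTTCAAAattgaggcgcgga
In these 4 promoters the match to TTTGAA nearest the start began at -15 (Cdk1), -17 (Kif22), -23 (Top2a) and -19 (Kif11), with a match to CCAAT beginning at -48, -54, -58 and -45. Over the lists, shares were counted by gene, and a gene counted if any of its promoters matched. Both motifs stood in a promoter of 33.3% of 27 mitotic kinase, cyclin and anaphase genes and of 29.4% of 34 spindle genes. The share was 17.6% of 17 licensing genes, 0% of 22 DNA synthesis genes and 6.45% of 27025 genes in the table. TTTGAA, with or without CCAAT, stood in 37% and 38.2% of the 2 mitosis sets, 23.5% of licensing, 18.2% of DNA synthesis and 18.3% of all genes. CCAAT stood in 74.1% and 61.8% of the mitosis sets, 64.7% of licensing, 45.5% of DNA synthesis and 37.5% of all genes. Such matches describe letters in a window and are not sites.

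The control of G1 was mixed. Of 20 tested G1 cyclins, kinases, E2F factors and inhibitors 7 rose and 2 fell (45% called against 18.9% of all genes). The list median of 0.28 turned to -0.04 with median centring, where all genes lay at -0.28. Ccnd1 (cyclin D1) was at 8.44 and 9.20 in wild type cells and 10.71 to 11.43 in TCL1-192 cells, a 5.11-fold rise (limma adjusted p = 0.0024). It stood at 8.13 and 6.29 in young TCL1 cells. The other D cyclins did not pass, with Ccnd3 at -0.70 ± 0.19 (limma adjusted p = 0.053) and Ccnd2 at -0.52 ± 0.28. Skp2, which targets the inhibitor p27 for degradation, rose 3.66-fold and E2f1 3.16-fold, while the inhibitor gene Cdkn2b fell by 1.27 ± 0.25, Cdkn1c was at least 1.18-fold lower and p27 itself (Cdkn1b) differed by 0.14 ± 0.47. Without either wild type array 1 member was called. Of 18 tested genes of recombination repair, checkpoints and chromatin maintenance 7 rose and 0 fell (38.9% called). Without the array of raised background 9 rose and 1 fell. Uhrf1, which keeps DNA methylation through replication, rose 4.43-fold, Rad54l, a recombination motor, 3.91-fold and the methyltransferase gene Ezh2 2.77-fold. Ung, which removes uracil from DNA, rose 2.43-fold. Atm, the kinase that senses double strand breaks, differed by -1.59 ± 0.50 and did not pass, although a second array symbol of the gene, C030026E19Rik, fell by 1.12 ± 0.22. Without the wild type PtC+ or PtC- array 1 and 0 members of this list were called.

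Lists of growth and metabolism had lower medians than those of division. In the MYC network and ribosome biogenesis 4 of 33 tested genes rose (12.1% called), and 7 without the array of raised background. The list median of 0.35 was -0.04 with median centring, where all genes lay at -0.28. Myc itself was at 8.11 and 8.15 in wild type cells and at 6.63 to 8.25 in TCL1-192 cells, overlapping. Mxd3, a MAX partner expressed in S phase, was undetected in wild type and at least 2.92-fold higher, and the ribosome assembly genes Nop56 (array symbol Nol5a) and Bop1 rose 2.2-fold and 1.67-fold. Calls numbered 0 and 1 without the wild type PtC+ or PtC- array. Of 57 cytosolic ribosomal protein genes 4 rose and 1 fell (8.77% called, below the 18.9% of all genes), with a median of 0.06 that turned to -0.12 with median centring and 0 calls without either wild type array. Respiratory chain genes rose in 7 of 35 tested members and fell in 0 (20% called), with all 35 differences above 0 and a median of 0.45. Ndufb9 and Ndufb10 of complex I rose 4.11-fold and 3.14-fold (0.09 on the other Ndufb10 probe) and cytochrome c1 (Cyc1) 2.26-fold. With median centring 2 members were called, and without either wild type array 0.

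In glycolysis and the hypoxia response 6 of 23 tested genes rose and 1 fell (30.4% called against 18.9% of all genes). The list median of 0.28 turned to -0.09 with median centring, where all genes lay at -0.28. Without the array of raised background 9 genes rose. Ndrg1, a stress gene induced by low oxygen, rose 11.6-fold from 6.73 and 6.17 to 9.35 to 10.46. The enzyme genes Aldoc, Pfkm, Pgk1 and Pgam1 rose 3.05-fold, 2.94-fold, 2.02-fold and 1.97-fold. The 3 kept Pfkm probes ranged from 0.15 to 1.55 log2 units. The glucose transporter Slc2a1 fell by 1.06 ± 0.23, and Hif1a, the transcription factor that oxygen regulates, differed by -1.09 ± 0.33 without passing. Without the wild type PtC+ or PtC- array 1 and 0 members were called. Sterol synthesis had 2 calls among 22 tested genes, Sqle (3.3-fold higher) and Msmo1 (array symbol Sc4mol, 2.6-fold higher), and 0 and 1 without the wild type PtC+ or PtC- array. Of the sterol genes tested 9.09% were called. The serine pathway genes Psat1 and Phgdh rose 6.32-fold and 2.17-fold. Asns, the asparagine synthetase, was detected in wild type (7.88 and 8.01) and undetected in TCL1-192 cells (4.65 to 5.0), at least 4.35-fold lower, so known ATF4 targets moved both ways (3 rose and 2 fell of 13, and 1 and 2 were called without the wild type PtC+ or PtC- array).

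Of 21 tested activation genes 4 rose and 10 fell (66.7% called against 18.9% of all genes), with a median of -1.11. Of the falls 3 were undetected on every TCL1-192 array. Among 16 members detected on at least 4 arrays, 4 rose and 7 fell. The rises were Cd86 and 3 genes that ERK signals are known to induce, Etv5, Spred1 and Dusp6, a grouping made after their values were seen. Spred2 and Spry2, of the same kind as Spred1, were undetected on all 6 arrays. Spred1, an inhibitor of Ras signals to ERK, was at 6.18 and 5.54 in wild type cells and at 9.69 to 10.09 in TCL1-192 cells, a 16.2-fold rise (limma adjusted p = 0.00072). Dusp6, the phosphatase of ERK, rose 5.96-fold from 9.20 and 9.65 to 11.86 to 12.21, with probes at 1.28 to 3.18. Young TCL1 cells were low in both, at 5.76 and 4.83 for Spred1 and 8.39 and 7.64 for Dusp6. Egr, Fos, Jun and Atf3 family members were among the falls. Egr1 was at 10.33 and 9.53 in wild type cells and at 7.73 and 7.35 in PtC+ and 7.92 and 7.03 in PtC- TCL1-192 cells, a 5.37-fold fall (limma adjusted p = 0.0087). Egr3 fell 11-fold and Atf3 6.1-fold, each detected on 3 of 4 TCL1-192 arrays, Junb by 1.83 ± 0.18 and Fos by 1.11 ± 0.21, and Fosb and Fosl2, undetected in TCL1-192 cells, were at least 3.68-fold and 4.51-fold lower. The early surface proteins Cd69 (0.02) and Cd83 (0.22) did not pass, and of the Nr4a factors no probe was detected on 2 arrays. Without the wild type PtC+ or PtC- array 3 members rose in each fit, and 4 and 2 fell.

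Of 21 tested genes of NF-kB signalling 8 fell and 0 rose (38.1% called against 18.9% of all genes), with a median of -0.98. Of the falls 3 were undetected on every TCL1-192 array and passed the detection filter through the wild type arrays. Among 17 members detected on at least 4 arrays, 4 fell. Tnfaip3 (A20), an inhibitor of the pathway and its target, was at 8.22 and 7.66 in wild type cells and undetected in TCL1-192 cells (4.67 to 5.44), at least 4.33-fold lower (limma adjusted p = 0.0033). Traf3, which keeps the noncanonical pathway off, fell 4.39-fold, with probes from -2.13 to -0.87 log2 units. Nfkb2, the subunit that pathway processes, fell from 7.19 and 8.20 to 4.86 to 6.37, detected on 1 of 4 TCL1-192 arrays. Traf1 fell 3.9-fold, Ebi3 2.58-fold, and the inhibitor Nfkbia by 1.27 ± 0.18, while Birc3 was at least 1.3-fold lower. The subunits Rel (-0.75), Rela (-1.06), Relb (-1.44) and Nfkb1 (-0.54) did not pass. Genes of inhibitors and of targets thus fell alike in direction. Without the wild type PtC+ or PtC- array 0 and 2 members were called, and without the TCL1-192 array of raised background 11.

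**Figure D4:**
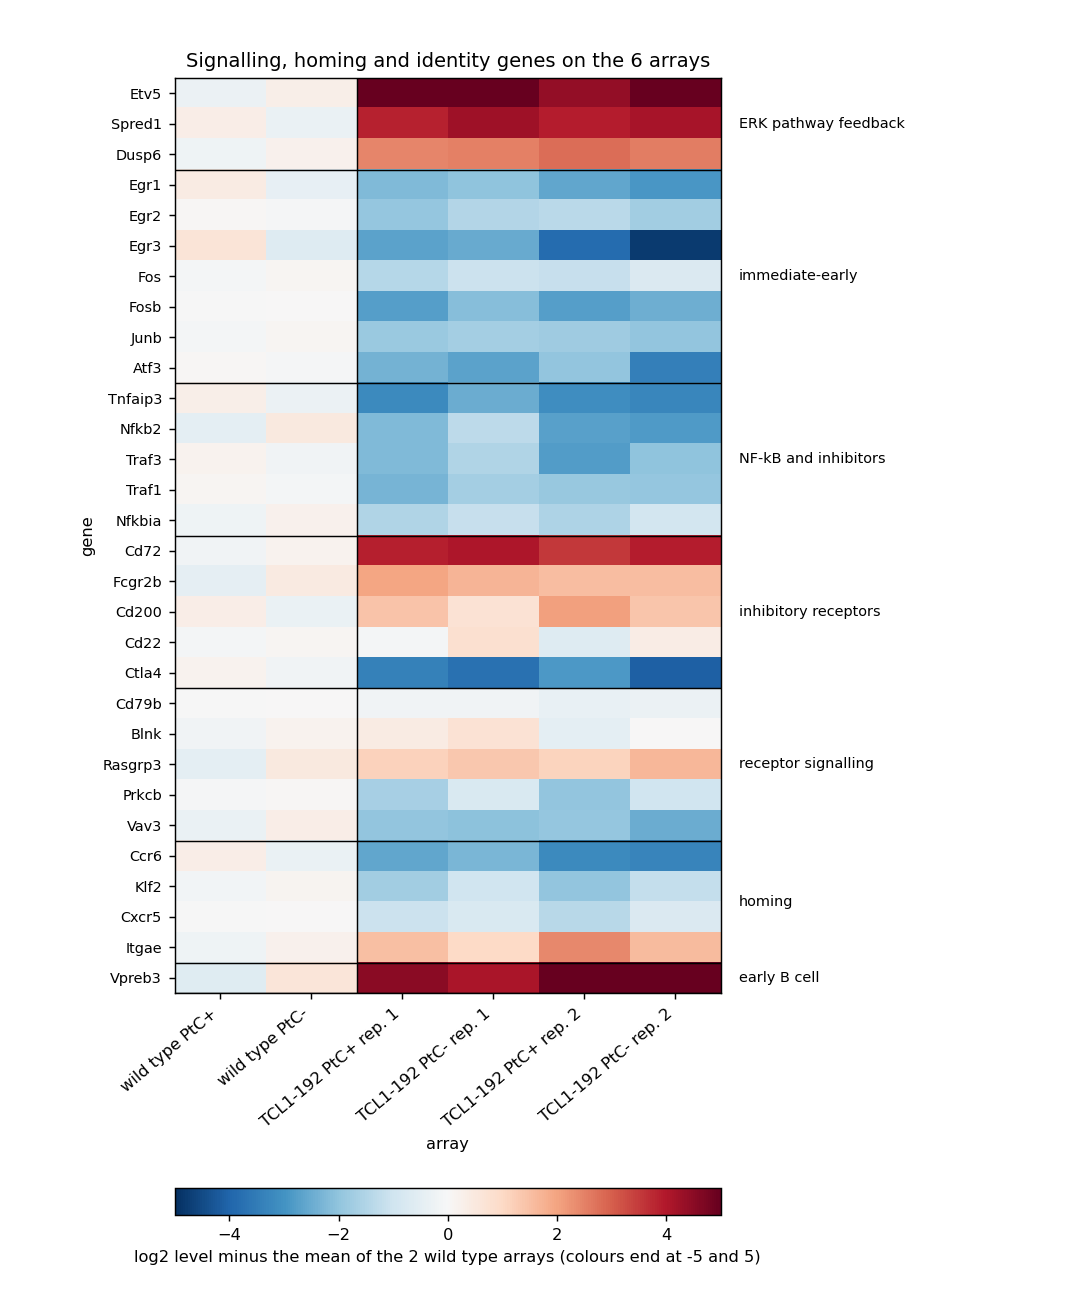
Level of 30 signalling, homing and identity genes on each of the 6 arrays, as the log2 level minus the mean of the 2 wild type arrays. Etv5, Spred1, Dusp6, Cd72 and Vpreb3 are red on all 4 TCL1-192 arrays, the Egr, Fos and NF-kB blocks and Ccr6 are blue, and Cd79b and Blnk are near white.

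Of 26 tested symbols of the B cell receptor pathway 2 rose and 4 fell (23.1% called against 18.9% of all genes), with a median of -0.25, and the falls count Prkcb under both of its symbols on the array. Vav3, a guanine nucleotide exchange factor, was undetected in TCL1-192 cells and at least 2.89-fold lower. The protein kinase C gene Prkcb fell 2.55-fold, from 10.77 and 10.91 to 8.87 to 10.07, and Ms4a1 (CD20) 1.93-fold. Rasgrp3, which activates Ras, rose 2.5-fold and the adaptor gene Lat2 1.88-fold. Syk (-0.91), Plcg2 (-0.68), Blk (-0.66), Btk (-0.21) and Blnk (0.16) did not pass. Without either wild type array no more than 1 member was called.

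Inhibitory receptors and phosphatases were called in both directions, 3 of 19 rising and 3 falling (31.6% called against 18.9% of all genes). Their median was -0.12. Cd72, an inhibitory partner of the B cell receptor that recruits the phosphatase SHP-1, was at 8.14 and 8.48 in wild type cells. It rose 14.3-fold to 12.19 and 11.83 in PtC+ and 12.36 and 12.23 in PtC- TCL1-192 cells (limma adjusted p = 0.00042). Young TCL1 cells were at 7.24 and 8.27, near wild type and far from TCL1-192. Fcgr2b, the inhibitory IgG receptor, rose 3.25-fold and Cd200, which signals to myeloid cells, 2.63-fold. The 2 kept Cd200 probes were at 0.36 and 1.39 log2 units. Ctla4, the checkpoint receptor, went the other way and fell 11.4-fold from 9.93 and 9.54 to 5.65 to 6.88. In young TCL1 cells it was at 10.37 and 11.19. Pecam1 fell 2.74-fold, and Cd22 (0.10), Ptpn6 (0.38) and Siglecg (-0.69) did not pass. Cd72 and Ctla4 were called with every array left out, whereas Fcgr2b, Cd200 and Pecam1 lost the call without at least 1 array.

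Among 20 tested genes of the PI3K, AKT and mTOR pathway, in which TCL1 acts, 1 rose and 3 fell, with a median of -0.64, so that 20% were called against 18.9% of all genes. Pik3r1, the regulatory subunit of PI3K, fell 2.62-fold from 12.08 and 12.13 to 10.37 to 11.07. Gsk3a and Foxo3, both inhibited by AKT at the protein level, were undetected on every TCL1-192 array and at least 1.24-fold and 1.06-fold lower. Among 16 members detected on at least 4 arrays, 1 rose and 1 fell. The translation repressor gene Eif4ebp1 rose 1.65-fold, a call that was lost with each array left out. Foxo1 (-0.51) did not pass, and without either wild type array 0 members were called.

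Of 23 tested B-1 identity genes 6 fell and 3 rose (39.1% called against 18.9% of all genes), with a median of -0.72. Anxa2, a membrane-binding annexin high in B-1 cells, was at 13.73 and 13.27 in wild type, 13.70 and 12.85 in young TCL1 and 10.63 to 10.80 in TCL1-192 cells, a 6.92-fold fall (limma adjusted p = 0.00072). Vim fell 2.68-fold, the corepressor gene Tle3 2.88-fold, and Ahnak 3.81-fold, though the 4 Ahnak probes ranged from -1.93 to 0.06. Rising members were the cytokine gene Il10 (3.5-fold), Nt5e, the ectoenzyme CD73 (0.99 ± 0.21), and Lgals1 (0.88 ± 0.21). Zbtb32 (-0.78), Spn, which encodes CD43 (-0.45), and the B-1 regulator Bhlhe41 (array symbol Bhlhb3, -0.35) did not pass. Itgam, also a macrophage gene, was at least 1.2-fold lower, and the summed macrophage signals of the genotypes overlapped, as given above. Without the wild type PtC+ or PtC- array 2 members fell and 0 rose in each fit.

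Homing and adhesion genes fell in 9 of 22 tested members and rose in 1 (45.5% called against 18.9% of all genes), with a median of -0.81. Without the array of raised background 12 fell. Klf2, a transcription factor of lymphocyte quiescence and trafficking, was at 13.88 and 14.19 in wild type cells. It fell 2.77-fold to 12.28 and 12.07 in PtC+ and 13.06 and 12.86 in PtC- TCL1-192 cells (limma adjusted p = 0.0093). The integrin chain gene Itgal fell 2.75-fold. Ccr6, a chemokine receptor, fell from 8.29 and 7.64 to 4.65 to 5.7, detected on 1 of 4 TCL1-192 arrays. Cxcr5, the follicle homing receptor, fell by 0.99 ± 0.21 and Selplg, the ligand of P-selectin, by 1.16 ± 0.24, with its second symbol Selpl at -1.07 ± 0.30 without passing. Itgae, the integrin chain CD103, rose 3.1-fold from 5.22 and 5.61 to 6.42 to 7.84, and its 3 kept probes ranged from 0.35 to 1.75. Cxcr4 (-0.29), Ccr7 (-0.55), Itga4 (-0.91) and Cd44 (-0.62) did not pass. None of the members named here was called with every array left out, and 1 member of the list was called without either wild type array.

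Of 17 tested transcription factors and early genes of the B lineage 23.5% were called, against 18.9% of all genes. There 1 rose (Vpreb3) and 3 fell, Pou2af1 (OCA-B) 2.33-fold, its partner Pou2f2 (Oct-2) 2.28-fold and Ikzf1 (Ikaros) 1.96-fold. A second Ikzf1 symbol, Zfpn1a1, differed by -0.73 ± 0.24 and did not pass. Irf4 (-0.87) and Ebf1 (-0.34) did not pass. In the secretory programme of plasma cells Slamf7 was at least 1.85-fold lower and Herpud1 fell 1.94-fold, Creld2 rose 2.76-fold, and Xbp1 (-0.33) and Hspa5 (0.12) did not pass. Of the 17 tested plasma cell genes 17.6% were called. Their median of 0.10 turned to -0.23 with median centring, where all genes lay at -0.28. Among follicular and marginal zone genes Fcer2a (CD23) was at least 1.81-fold lower and Cd86, a costimulatory ligand, rose 2.37-fold, with 12 tested and 16.7% called. These lists together had 2 and 1 calls without the wild type PtC+ or PtC- array.

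Antigen presentation genes were called at about the rate of all genes. Of 22 tested symbols 2 rose and 2 fell (18.2% called, against 18.9%), with a median of -0.07. H2-Ea, described above, fell 11.1-fold and Ifi30, a lysosomal reductase, 2.21-fold, while the immunoproteasome gene Psmb9 rose 2.79-fold and H2-Ob, which tunes peptide loading, 2.31-fold. H2-Ab1 (0.23), H2-Aa (0.53) and Cd74 (-0.08) did not pass. Of 18 tested interferon-stimulated genes 5 fell and 1 rose (33.3% called against 18.9% of all genes), with a median of -0.18. Of the falls 2 were undetected on every TCL1-192 array. Among 15 members detected on at least 4 arrays, 1 rose and 3 fell. Gbp2 fell 4.32-fold, Parp14 fell 2.28-fold, Oasl2 was at least 1.56-fold lower, and Ifi47 rose 1.71-fold. Without either wild type array 0 members of both lists were called.

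Survival and death genes were called at about the rate of all genes, 20% against 18.9%. Of 20 tested genes 2 rose, the BH3-only genes Bad (2.3-fold) and Bik (at least 2.35-fold higher, undetected in wild type), and 2 fell, the survival genes Mcl1 (2.11-fold) and Bcl2 (1.97-fold). Mcl1 was at 13.87 and 14 in wild type cells and at 12.77 to 12.94 in TCL1-192 cells. The 2 kept Bcl2 probes disagreed, at -0.97 and 0.37. The list median of 0.05 turned to -0.36 with median centring, where all genes lay at -0.28. Without either wild type array 0 members were called. Among TNF family, Toll-like and cytokine receptors Tlr2 fell 1.69-fold and Tlr1 rose 2.01-fold, of 20 tested (20% called). Tnfrsf1b fell from 7.67 and 7.19 to 5.09 to 6.27, detected on 1 of 4 TCL1-192 arrays, and its probes ranged from -1.93 to -0.39. The BAFF gene Tnfsf13b was also called lower, but it lay at 5.63 and 5.72 in wild type cells and was undetected in TCL1-192 cells, too close to the detection limit for a fold. Without either wild type array 0 members of this list were called. Of heat shock genes Hspb1 rose as given above and Hspa1a was at least 2.17-fold lower, of 18 tested (11.1% called). Counterparts of human CLL markers did not move together, 1 of 10 rising (Cd200, with probes at 0.36 and 1.39) and 4 falling (50% called). Lpl, whose expression in human CLL goes with unmutated receptors, fell from 8.44 and 9.02 to 4.93 to 6.66, and Notch1, mutated in part of human CLL, from 6.83 and 7.13 to 5.0 to 5.88, with 1 of 4 TCL1-192 arrays detecting each and no fold given. Without either wild type array 0 members of this list were called.

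Immunoglobulin variable genes were mostly detected in wild type cells alone. Of 33 tested symbols, from 90 on the array, 19 fell and 1 rose (60.6% called against 18.9% of all genes). The list median of -2.92 was 0.03 over the members detected on at least 4 arrays. Of the 19, 15 were undetected on every TCL1-192 array and passed the detection filter through the wild type arrays, so that only a fall was open to them. Of the 11 members detected on at least 4 arrays 2 fell and 1 rose. The count of falls was 20 and 14 without the wild type PtC+ or PtC- array. IGKV3-2 was at 10.32 and 11.81 in wild type and 4.79 to 4.89 in TCL1-192 cells, at least 37.9-fold lower (limma adjusted p = 0.00047). IGKV8-31 and IGKV9-120 were at least 40.1-fold and 32.2-fold lower and IGKV4-73 at least 16-fold. The kappa gene IGKV4-91 was at 14.88 (PtC+) and 11.57 (PtC-) in wild type cells. In TCL1-192 cells it was undetected at 4.68 to 4.86, at least 169.2-fold lower. The one rise was Igh-VS107, of a heavy chain family known from antibodies to phosphorylcholine, from 7.46 and 8.01 to 11.67 and 11.14 in PtC+ and 12.36 and 11.75 in PtC- cells (3.99 ± 0.27). Igh-V11 and IGHV12S1, of families known from PtC receptors, were present in both genotypes and did not pass (1.08 ± 0.37 and 0.84 ± 0.52), nor did the kappa gene IGKV9-128 (1.09 ± 0.30). These last 3 lay at 11.71 to 15.19 in TCL1-192 cells, and the constant gene Igh-6 of IgM (-0.30) and Igk-C (0.00) were at or near the ceiling, where differences are compressed. Probes for related variable genes can report one another.

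**Figure D5:**
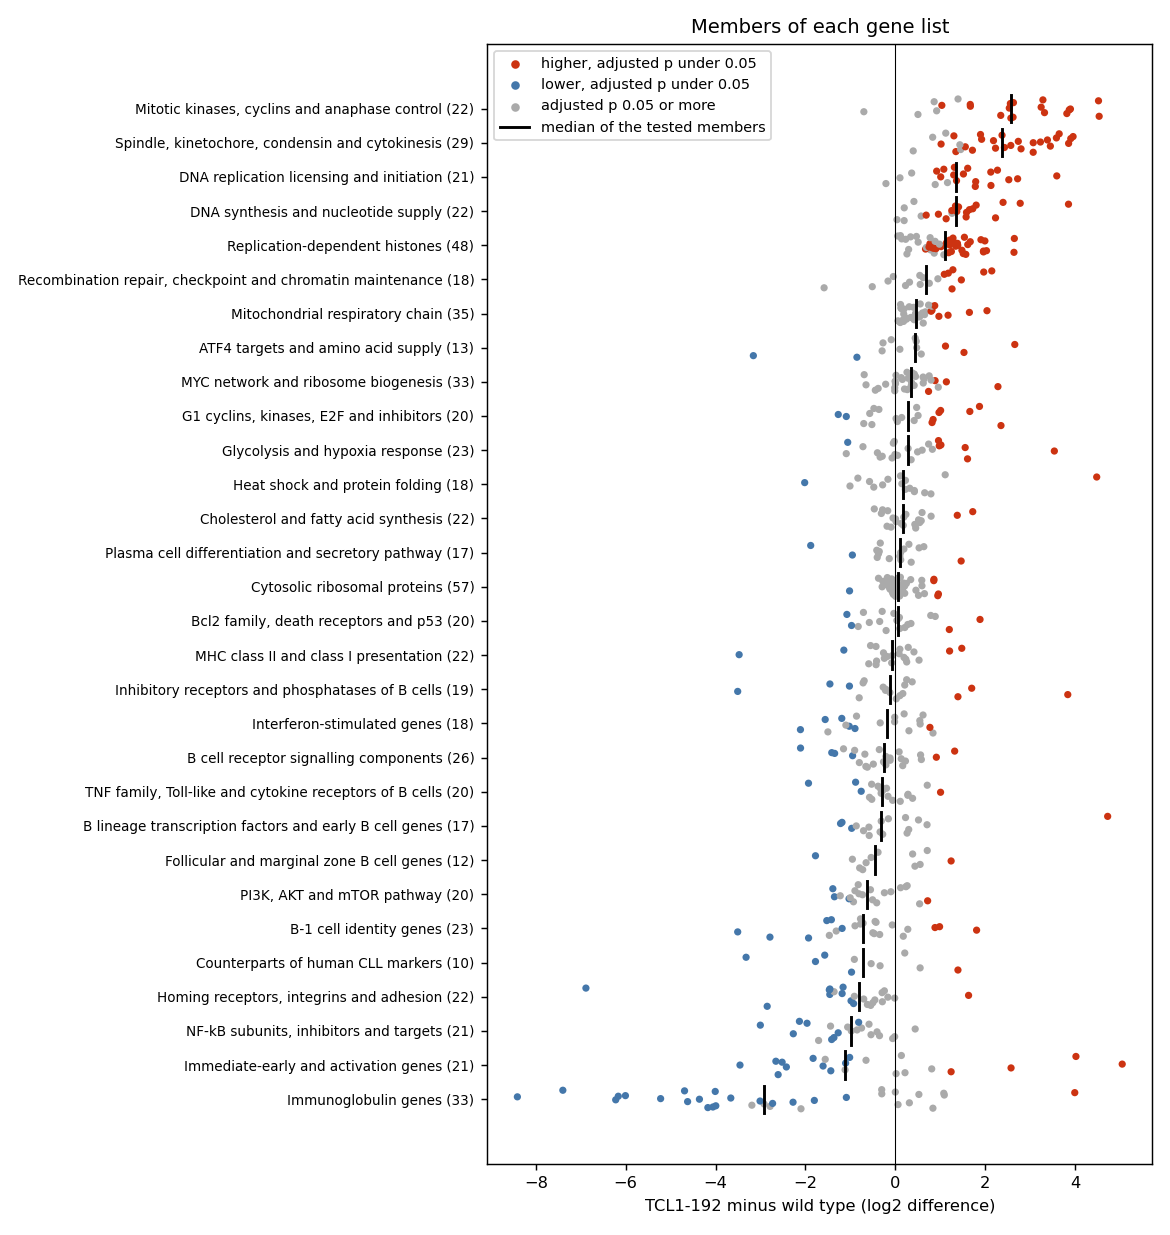
Log2 difference (TCL1-192 minus wild type) of each tested member of 30 gene lists, with the number tested in brackets, calls in colour and a bar at the median. Lists are ordered by their median, from mitotic kinases at 2.57 down, and the immunoglobulin genes stand last because members detected in wild type cells alone are included (their median was 0.03 over members detected on at least 4 arrays). Most lists in the middle hold both red and blue members.

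Macrophage genes did not fall evenly. Of 19 tested symbols 7 fell and 4 rose (57.9% called against 18.9% of all genes), with a median of -1.04. However, 2 fell without either wild type array, and 2 and 3 rose without the PtC+ or PtC- one. Prg4, made by large peritoneal macrophages, was at 12.05 and 12.58 in wild type cells and 7.09 to 8.51 in TCL1-192 cells, a 24-fold fall (limma adjusted p = 0.00052) on a probe beside which the other kept probe gave -0.88. Alox15 was undetected in TCL1-192 cells and at least 6.92-fold lower, and Adgre1 (array symbol Emr1), which encodes F4/80, fell 4.63-fold. Arg1, an enzyme of alternatively activated macrophages, rose 9.97-fold from 6.27 and 6.62 to 9.70 to 9.83, and Apoe 5.7-fold. Marco (-0.08) and Fcna (-0.21) did not pass. These opposite moves were called for Prg4, Alox15, Arg1 and Apoe with every array left out. The haemoglobin gene Hbb-b1 rose 203-fold, from 5.65 and 6.81 to 13.58 to 14.40, and was at 7.82 and 10.59 in young TCL1 cells. Among T cell genes Cd3g fell 14.2-fold and Cd8b1 rose 4.57-fold, though its second array symbol Cd8b differed by -0.28 without passing, and Cd3d (0.35) and Lck (0.54) did not pass.

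The genotype difference was also asked for within each PtC class, in a fit of all 12 arrays with 1 mean per group, where a lone wild type array is assumed to vary like the other groups. In PtC+ cells 2354 genes (20%) were called and in PtC- cells 1235 (10.5%). All 2218 genes of the main comparison had the same direction in both classes. The effect itself differed between the classes for 23 genes (0.196%), with 619 at an unadjusted p under 0.05. Of the 23, 21 were undetected on every TCL1-192 array, 8 were listed immunoglobulin genes and 14 were gene models without a name. For these the difference is that between the 2 wild type arrays. IGHV1S119 was at 6.59 on the wild type PtC+ array and 11.11 on the PtC- array, and undetected in TCL1-192 cells, giving a difference of 4.61 between the class effects (limma adjusted p = 0.0028). IGKV4-91 ran the other way, at 14.88 and 11.57, with a difference of -3.40 (limma adjusted p = 0.0064). Gng13, a G protein subunit, was expressed on all arrays. It was at 9.35 (PtC+) and 6.64 (PtC-) in wild type cells and at 10.97 to 11.29 in TCL1-192 cells, which gave a difference of -2.76 between the class effects (limma adjusted p = 0.033). Each of these differences rests on 1 wild type array per class, whose own spread was not measured. The count of 23 was 17 without either PtC+ TCL1-192 array, 38 without the PtC- array of replicate 2 and 692 without that of replicate 1. The count within PtC+ cells was 3852 without either PtC- TCL1-192 array, 1835 without the PtC+ array of replicate 1 and 1041 without that of replicate 2. The count within PtC- cells was 1045 without either PtC+ TCL1-192 array, 4099 without the PtC- array of replicate 1 and 1437 without that of replicate 2.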

How the data were processed

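RNA of 12 sorted samples was hybridised as biotin-labelled cRNA to 1-colour Illumina mouse arrays, per the labels' protocols. The deposited non-normalized table holds average bead signal intensities for 45281 probes, on a linear scale per the file headers. It also holds a detection p-value for each probe and array, per the file headers, which sets the probe against that array's negative controls. The authors' normalized intensity table shares its quantiles over the arrays, and no source used here gives the tool behind it. Its columns match the arrays by their values (correlation 0.991 to 1) and it served as an alternative.

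Intensities were background-corrected and quantile normalized over the 12 arrays with neqc (limma 3.58.1 in R 4.3.3, offset 16, controls inferred from the detection p), and log2 was taken. Probes detected at p under 0.05 on at least 2 of the 6 arrays were kept (16010), and the probe with the highest mean stood for each symbol, giving 11744 genes. The comparison was fitted with lmFit and eBayes on genotype and PtC class (3 residual degrees of freedom), two-sided, with Benjamini-Hochberg adjustment at 0.05. Differences within PtC classes and between them came from a fit of 12 arrays with 1 mean per group. A gene undetected on every array of a group has only a bound, written "at least", against the lowest signal among detected probes. That a group's cells were undetected means not above background.

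Genes were named as the 15 largest rises and 15 largest falls without overlap of the groups, leaving out unnamed gene models, up to 6 called members of each of 42 lists, members with a defining role whether called or not, and the 5 highest and 5 lowest differences between PtC classes. The members and lists were chosen with earlier results of these data known. Second array symbols of a gene were added after their values were seen. RefSeq's table gave current symbols, with 7423 symbols matched directly, 2307 through a synonym and 2014 not at all. The pipeline was tested on simulated data. Alternatives covered scaling, offset, filters, probe choice, variance model, replicate block and each array left out, and undetected values at the detection limit were added after the data were seen. Chips and scan dates are not given here, so batches were not tested. A few genes counted in the lists are not reported by name here.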

Additional observations from a re-analysis of the deposited data

Results flagged for a closer look

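The TCL1-192 PtC- array of replicate 2 lay far from the other 3 TCL1-192 peritoneal arrays in 3 measures. It had 10711 detected probes, a median signal of 219.2 and a mean signal of undetected probes of 205.4. Of 33 groups of 4 arrays tested this way, 3 of named genes also held an array that stood apart, and chance gives about 1 in 20. IGKV4-91 was at 4.68 on TCL1-192 PtC+ replicate 2, Pafah1b3 at 4.79 on PtC- replicate 2 and Emb at 5.13 on PtC+ replicate 2. All of these are levels of undetected probes.

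The genotype effect differed between PtC+ and PtC- cells, by the limma test of the difference itself, for 7 named genes. The effect in PtC+ minus that in PtC- cells was -3.40 for IGKV4-91 and -2.76 for Gng13. It was 4.61 for IGHV1S119, 3.92 for IGHV1S120, 3.86 for IGHV1S35, 3.69 for IGHV1S28 and 3.94 for IGHV1S36. The 5 heavy chain genes were undetected on the TCL1-192 arrays, and for all 7 the contrast rests on 1 wild type array in each class.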

How the results depend on the processing

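Of the 2218 calls, all kept their direction under every alternative except 5 without a filter, 3 of 1717 with detection on 4 of 6 arrays, 1 with probes averaged and 27 with undetected values at the detection limit. The number of calls was 3608 with array weights (1682 higher, 1926 lower) and 3648 in the fit of 12 arrays (1644 higher, 2004 lower). With an intensity trend 1515 genes were higher. Median centring left 402 higher. The same replicate number does not mark a shared animal in the labels, and only 2 pairs exist, whose deviations correlated at 0.236 in the peritoneum and 0.275 in the spleen. With the replicate block as a random term 1760 genes were called, and with 1 value per number, 2 against 1, 821 (347 higher, 474 lower). The difference between PtC classes was called for 49 genes without a filter. Leaving out 1 array gave 372 to 3028 calls (155 to 1422 higher, 217 to 1606 lower), 1041 to 3852 within PtC+ cells, 1045 to 4099 within PtC- cells and 17 to 692 for the difference between classes. Of 184 named genes 70 kept the call in all 6 such fits, and 106, 103, 75 and 60 lost it without the wild type PtC+, wild type PtC-, TCL1-192 PtC+ replicate 1 and PtC+ replicate 2 array. Median centring lost 36, no filter 29 and the replicate block 15. With undetected values at the detection limit 13 lost the call and Tnfsf13b turned to 0.15 (limma adjusted p = 0.71). Why these calls were lost was not tested. The raised background of 1 array and the ceiling of 15.47 limit what low and high genes can show.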
